A study of Mus musculus with 6 samples.

Results

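The genes described here build and maintain the scaffold of the cardiac sarcomere. They number 35 of the 55487 genes in the deposited table of read counts, were taken by name, and comprise titin and thick filament genes, M-band genes, Z-disc genes, genes for proteins at the ends of thin filaments, and genes of sarcomere turnover. Their counts come from wild-type mouse ventricular cardiomyocytes isolated at postnatal day 1 or 2, sorted by negative selection with CD90 antibodies to take out fibroblasts, and cultured for 12 h on fibronectin in medium with serum before a treatment of 48 h. The groups were GANT61 at 3 µM, an inhibitor of the GLI transcription factors, cyclopamine at 5 µg/ml, an inhibitor of the Hedgehog relay protein Smoothened, and DMSO, the label of the control samples. Per the labels there were 6 samples, 2 in each group. The table holds 3 columns of counts, 1 for each group, and does not say whether a column is a single sample or a pool. No difference between groups therefore has a replicate check. Each compound was given at a single dose, so their values are set side by side without a match of dose.

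In a sarcomere, actin filaments are anchored at the Z-disc and myosin filaments are held in register at the M-band, with titin spanning from one to the other. Z-disc proteins also tie the myofibril to desmin filaments and to the cell membrane, and several of them shuttle to the nucleus. Ubiquitin ligases of the MuRF family and muscle chaperones replace worn components. In the neonatal heart, cardiomyocytes leave the cell cycle while their sarcomeres mature, and isoforms of several scaffold proteins are exchanged.

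The columns held 35461530 counts for GANT61, 38966515 for cyclopamine and 36661845 for DMSO. Defining markers of cardiomyocytes were abundant, with 8 of 8 detected and a summed level of 53024 CPM (counts scaled to library size) in GANT61, 59900 in cyclopamine and 62847 in DMSO. Summed over 10 genes each, markers of smooth muscle and pericytes reached 1691, 1881 and 2752 CPM in those libraries, and fibroblast markers 972, 1093 and 1431 CPM. Endothelial markers (8 genes) summed to between 75.2 and 91.8 CPM and macrophage markers (8 genes) to between 8.49 and 15.8 CPM, whereas epicardial and mesothelial markers (8 genes) summed to 161 CPM in GANT61, 79.9 in cyclopamine and 77.9 in DMSO. Of these epicardial markers 7 of 8 were higher by at least 1.5-fold in GANT61 and 3 of 8 in cyclopamine. The part of such shifts in the values of the scaffold genes was not tested. Skeletal muscle markers (10 genes) summed to 221 CPM in GANT61, 389 in cyclopamine and 507 in DMSO. Of 5 that could be tested, 1 was higher and 3 lower by at least 1.5-fold in GANT61, and 1 higher and 1 lower in cyclopamine. The defining genes Myod1, Pax7 and Actn3 had 0 counts in every library, while Ckm, for the muscle creatine kinase that heart also expresses, had 7694, 14752 and 18158. Tnnt3, for fast skeletal troponin T, had 63, 90 and 422 counts, and Myog, for myogenin, 116, 34 and 25. In bulk samples such as these, fewer cells of a type and less RNA per cell cannot be told apart.

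Together the 35 genes took 3.96% of all counts in GANT61, 3.84% in cyclopamine and 3.90% in DMSO. Levels between genes were compared per kilobase of annotated exon, as CPM per kb. Ankrd1, which encodes a stress-responsive ankyrin repeat protein that binds titin, was the most abundant, at 3011 CPM per kb in GANT61, 2922 in cyclopamine and 2531 in DMSO. Mybpc3, for cardiac myosin-binding protein C, followed at 1236, 1104 and 1065 CPM per kb in the same order of libraries. Des, for the intermediate filament protein desmin, stood at 682, 744 and 906 CPM per kb. All 3 genes kept within 1.5-fold between any pair of libraries. Actn2, for the alpha-actinin that crosslinks actin at the Z-disc, stood at 540 CPM per kb in GANT61, 771 in cyclopamine and 851 in DMSO, and Cryab, for the small heat shock protein alpha-B crystallin, at 655, 613 and 655. Ankrd1, Mybpc3, Des and Actn2 together held 47.0%, 48.2% and 47.3% of the counts of the 35 genes. At the other end, Myot, the myotilin gene, had 3 counts in each library, and Myom3, for an M-band protein, had 55 in GANT61, 9 in cyclopamine and 22 in DMSO. The remaining 33 genes had between 889 and 323996 counts in every library.

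**Figure D1:**
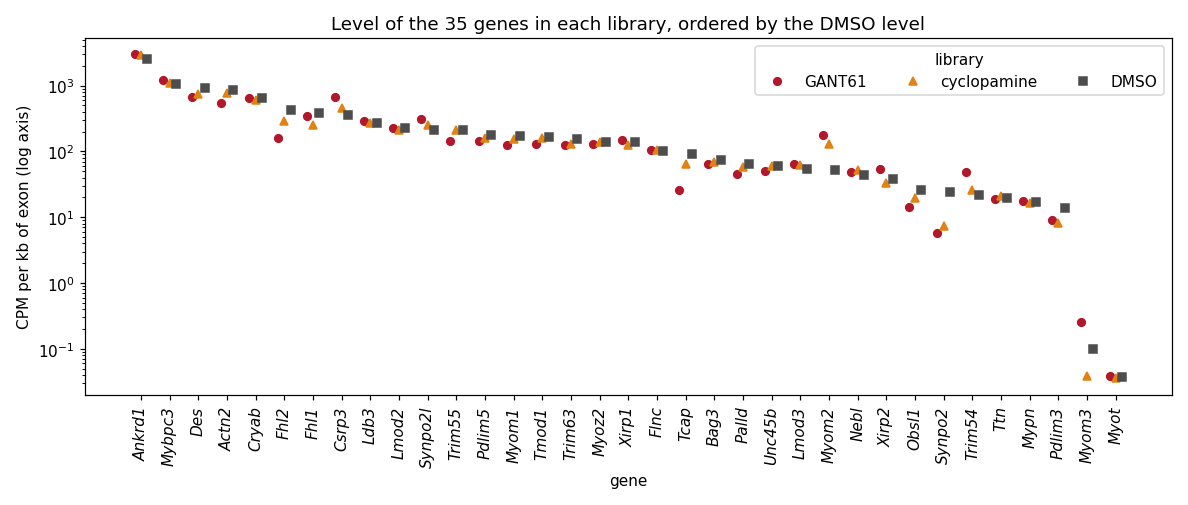
Level of each of the 35 genes in CPM per kb of exon (log axis), with GANT61 as circles, cyclopamine as triangles and DMSO as squares, 1 library each, ordered by the DMSO level. Ankrd1 was the most abundant at 2531 CPM per kb in DMSO, and Myom3 and Myot lay apart at the low end.

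A gene was called higher or lower by size when its scaled levels differed by at least 1.5-fold (0.58 on the log2 scale) and the 95% interval of its counts did not span 0. These intervals hold only the error of counting and not the variation between cultures. Of the 35 genes, 34 passed the expression filter and Myot did not. In GANT61 against DMSO, 4 of 34 were higher (11.8%, beside 8.40% of all genes tested) and 6 lower (17.6%, beside 13.3%), with a median log2 fold change of -0.07 over the list and -0.01 over all genes. In cyclopamine against DMSO, 1 was higher (2.94%, beside 4.10%) and 4 lower (11.8%, beside 7.27%), with medians of -0.10 and 0.00. In either direction, 21.7% of all genes passed in GANT61 and 11.4% in cyclopamine, but most genes are counted less deeply than the list. Among genes that averaged at least 100 CPM, a limit chosen after seeing the data, 6 of 29 list genes passed in GANT61 (20.7%, beside 11.0% of 1931 genes) and 3 of 29 in cyclopamine (10.3%, beside 2.90%). These shares are descriptions of 3 libraries. Where a pair of log2 fold changes is given for a gene, the first is GANT61 against DMSO and the second cyclopamine against DMSO. Of the 34, 22 passed the rule in no comparison and 12 passed it in at least 1. The share of all genes past the rule in at least 1 comparison was not counted. Both comparisons with DMSO share the DMSO library.

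**Figure D2:**
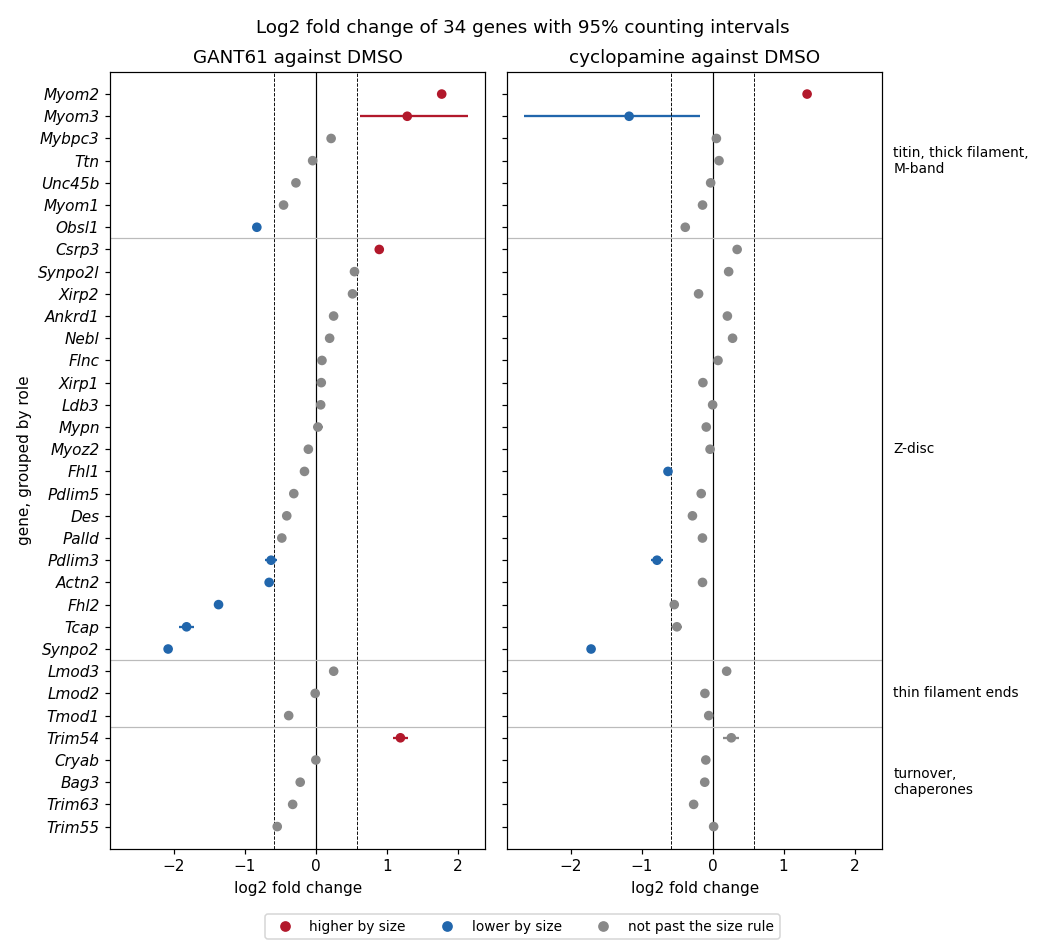
Log2 fold changes of 34 genes for GANT61 against DMSO (left) and cyclopamine against DMSO (right), with lines for 95% counting intervals, genes grouped by role, and dashed lines at 1.5-fold either way. Myom2 (1.77 and 1.33) and Synpo2 (-2.08 and -1.71) stand at the ends of both panels, and most genes lie between the dashed lines.

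The largest difference upward was at the M-band. Myom2 (chromosome 8, 15057653 to 15133541, plus strand, GRCm38), which encodes M-protein, a crosslinker of myosin filaments, had 56383 counts in GANT61, 44512 in cyclopamine and 16970 in DMSO. It was higher by size in both inhibitor libraries, by 1.77 on the log2 scale in GANT61 (counting interval 1.75 to 1.80, 3.42-fold) and 1.33 in cyclopamine (1.30 to 1.36, 2.51-fold). Its paralogue Myom1, for myomesin, the main structural protein of the M-band, had 47007, 62610 and 66232 counts, at -0.45 and -0.14, and did not pass the rule. In GANT61 the order of the pair was turned relative to DMSO. Myom2 had 1.199 counts for each Myom1 count in GANT61 (1.18 to 1.21) and 0.711 in cyclopamine (0.702 to 0.720), against 0.256 in DMSO (0.252 to 0.261). Such a ratio within a library does not depend on how libraries are scaled. Myom1 is also spliced into an embryonic heart form, which gene counts cannot show. Obsl1 (chromosome 1, 75479310 to 75506452), for an obscurin-like linker of the M-band to titin, had 4362 counts in GANT61, 6372 in cyclopamine and 7980 in DMSO. It was lower by size in GANT61 (-0.83, interval -0.88 to -0.78) and at -0.39 in cyclopamine. Myom3 passed the rule in opposite directions, at 1.29 (0.63 to 2.15) in GANT61 and -1.18 (-2.65 to -0.17) in cyclopamine, on its few counts.

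The titin and thick filament genes of the list differed by less than 1.5-fold between any pair of libraries. Ttn, the titin gene, had 80237 counts in GANT61, 94508 in cyclopamine and 85119 in DMSO, at -0.04 and 0.09 against DMSO. Mybpc3 was at 0.22 and 0.05, and Unc45b, for a chaperone that folds myosin, at -0.28 and -0.03. With libraries scaled to contractile genes, Ttn was at 0.22, Mybpc3 at 0.48 and Unc45b at -0.01 in GANT61 against DMSO. None of these 3 genes passed the size rule in any comparison, although the depth of their counts gives intervals that exclude no difference for all but Unc45b in cyclopamine (-0.07 to 0.01).

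Z-disc genes, which were 19 of the 34 list genes past the filter, made up 5 of the 6 list genes lower in GANT61. Of these 19, 1 was higher and 5 were lower by size in GANT61 (median -0.11), beside 8.40% and 13.3% of all genes tested. In cyclopamine 0 were higher and 3 lower (median -0.14), beside 4.10% and 7.27%. With libraries scaled to contractile genes, Csrp3, Synpo2l and Xirp2 were the Z-disc genes higher in GANT61, and Fhl2, Synpo2 and Tcap those lower. Actn2 (-0.39) and Pdlim3 (-0.36) stayed below DMSO under that scaling but no longer passed. Synpo2 (chromosome 3, 123076519 to 123236149, minus strand), which encodes myopodin, an actin-bundling protein of the Z-disc that smooth muscle also expresses, had 2674 counts in GANT61 and 3703 in cyclopamine, against 11631 in DMSO. Both inhibitor libraries were far below DMSO, with log2 fold changes of -2.08 (-2.14 to -2.02, 0.237 of the DMSO level) and -1.71 (-1.77 to -1.66, 0.305 of it). Pdlim3 (chromosome 8, 45885461 to 45919548), for the actinin-associated LIM protein, had 1659 counts in GANT61 and 1600 in cyclopamine, against 2641 in DMSO. It was lower by size in both, at -0.63 (-0.72 to -0.54) and -0.78 (-0.87 to -0.69). Synpo2 and Pdlim3 were the 2 list genes lower by size against DMSO in both inhibitors, and Myom2 the 1 higher in both. The share of all genes that passed in the same direction in both was not counted. Both comparisons use the same DMSO library, so this overlap does not set the list apart from other genes.

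Beside Synpo2 and Pdlim3, the smooth muscle markers Cnn1 and Acta2 were lower by size in both inhibitors. Cnn1, for the smooth muscle calponin, had 1532 counts in GANT61, 3184 in cyclopamine and 10724 in DMSO (-2.77 and -1.81), and Acta2, for smooth muscle actin, had 34683, 36238 and 57706 (-0.69 and -0.73). Immature cardiomyocytes also express Acta2. The 9 tested markers of smooth muscle and pericytes did not move as one: 1 was higher and 3 lower by size in GANT61 (median -0.44), and 2 higher and 2 lower in cyclopamine (median 0.02). Myh11, for the smooth muscle myosin, had 18, 25 and 21 counts, and Rgs5, a pericyte gene, had 6, 0 and 2. The part of other cell types in the Synpo2 and Pdlim3 values was not tested.

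The other Z-disc genes past the size rule in GANT61 did not pass it in cyclopamine. Tcap (chromosome 11, 98383811 to 98384953), for telethonin, which caps the end of titin at the Z-disc, had 889 counts in GANT61, 2379 in cyclopamine and 3233 in DMSO. Its log2 fold changes were -1.82 (-1.93 to -1.71) and -0.50 (-0.58 to -0.43), so GANT61 was the low library. Fhl2 (chromosome 1, 43123074 to 43196984), for a LIM-domain protein that binds titin and acts in the nucleus as a cofactor, had 11021, 21010 and 29295 counts in GANT61, cyclopamine and DMSO. The values were -1.37 (-1.40 to -1.34) and -0.54 (-0.57 to -0.52). Actn2 (chromosome 13, 12269426 to 12340760) had 73335 counts in GANT61, 112407 in cyclopamine and 118940 in DMSO, at -0.66 (-0.67 to -0.64) and -0.14. Csrp3 (chromosome 7, 48830398 to 48848033), for muscle LIM protein, a Z-disc scaffold linked to stretch sensing, went the other way. It had 63043 counts in GANT61, 46247 in cyclopamine and 34904 in DMSO, at 0.89 (0.87 to 0.91) and 0.34 (0.32 to 0.36). Fhl1 (chromosome X, 56731787 to 56793346), another LIM-domain gene, passed the rule only in cyclopamine among the 2 comparisons with DMSO. Its counts were 46003 in GANT61 and 35658 in cyclopamine, against 52848 in DMSO (-0.16 and -0.63). Set directly against cyclopamine, the GANT61 library passed the rule for Tcap (-1.32) and Fhl2 (-0.83) but not for Actn2 (-0.51), Csrp3 (0.55) or Fhl1 (0.47).

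The promoters of 4 Z-disc genes that passed the rule are shown because 3 of these genes were lower and 1 higher in GANT61. Each is given 5′ to 3′ on the strand of the gene, from 250 bases before to 50 after a RefSeq start (GRCm38.p6). Capitals mark matches on either strand to the CArG box bound by SRF, to the MEF2 site, to CATTCC (the core of the M-CAT site bound by TEAD factors) or to CCACCCA (the core of the GLI site). The Synpo2 window lies at chr3:123236100-123236399, minus strand. That of Pdlim3 lies at chr8:45885237-45885536, plus strand, that of Fhl2 at chr1:43196712-43197011, minus strand, and that of Csrp3 at chr7:48848002-48848301, minus strand.
Synpo2: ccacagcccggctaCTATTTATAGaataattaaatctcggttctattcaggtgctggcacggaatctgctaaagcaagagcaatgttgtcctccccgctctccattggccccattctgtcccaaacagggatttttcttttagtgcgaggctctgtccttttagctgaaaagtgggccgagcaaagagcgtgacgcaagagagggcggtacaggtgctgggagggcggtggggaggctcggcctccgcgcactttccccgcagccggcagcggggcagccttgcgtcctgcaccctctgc
Pdlim3: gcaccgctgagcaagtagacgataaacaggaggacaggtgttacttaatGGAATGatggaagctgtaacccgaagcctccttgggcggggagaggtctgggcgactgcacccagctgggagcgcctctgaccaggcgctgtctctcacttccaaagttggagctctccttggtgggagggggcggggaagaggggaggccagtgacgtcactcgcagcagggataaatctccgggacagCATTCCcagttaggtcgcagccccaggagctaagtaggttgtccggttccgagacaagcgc
Fhl2: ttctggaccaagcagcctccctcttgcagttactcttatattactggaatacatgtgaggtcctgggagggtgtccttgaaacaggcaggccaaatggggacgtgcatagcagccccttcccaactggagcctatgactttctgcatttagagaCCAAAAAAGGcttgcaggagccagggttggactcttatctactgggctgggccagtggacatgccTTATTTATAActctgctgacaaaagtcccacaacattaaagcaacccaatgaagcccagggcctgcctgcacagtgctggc
Csrp3: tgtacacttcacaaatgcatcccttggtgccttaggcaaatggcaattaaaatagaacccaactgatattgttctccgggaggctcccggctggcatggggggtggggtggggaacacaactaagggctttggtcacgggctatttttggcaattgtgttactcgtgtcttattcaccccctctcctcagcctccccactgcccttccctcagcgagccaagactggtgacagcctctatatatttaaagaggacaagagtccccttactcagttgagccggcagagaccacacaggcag

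Synpo2 held a MEF2 site, Pdlim3 held CATTCC in both orientations, Fhl2 held a CArG box and a MEF2 site, and the Csrp3 window held none of the 4 motifs. The RefSeq table has a second start within Fhl2 and within Csrp3. The windows shown are those at the annotated 5′ end of each gene. The other Fhl2 window held a CArG box and no MEF2 site, and the other Csrp3 window held none of the motifs. No marked matches shared bases. The RefSeq table held 40 promoters for 28 of the 35 genes. It had none for Myom2, Tcap, Xirp1, Lmod3, Myot, Trim55 and Cryab. A CArG box was in 7 of the 40 (17.5%, beside 1.63% of all 32851 promoters), a MEF2 site in 9 (22.5%, beside 3.19%), CATTCC in 11 (27.5%, beside 14.7%) and CCACCCA in 3 (7.5%, beside 9.30%). Promoters of 1 gene can overlap, so these are not independent windows. CCACCCA was found at Actn2, Mybpc3 and Nebl. Of these, Actn2 was lower by size in GANT61 and the other 2 genes passed the rule in no comparison.

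**Figure D3:**
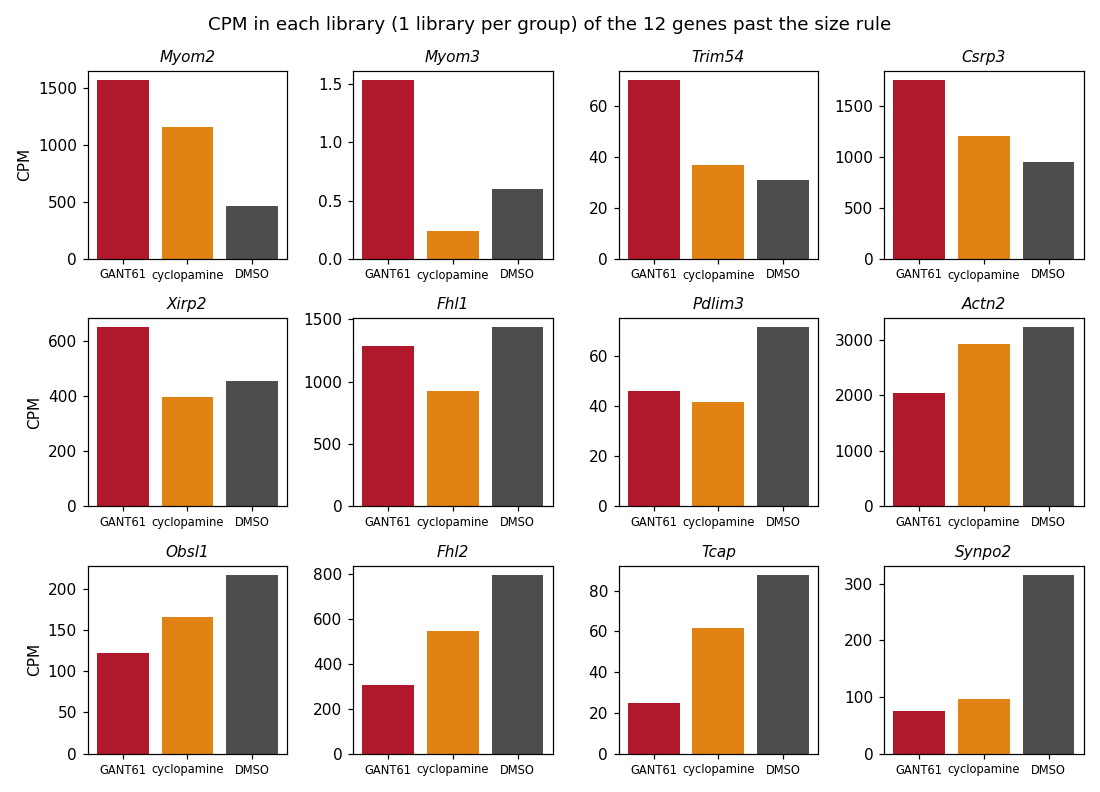
CPM of the 12 genes past the size rule in any comparison, 1 bar per library (GANT61, cyclopamine, DMSO), each panel with its own scale from 0. Myom2 reached 1575, 1158 and 461 CPM in GANT61, cyclopamine and DMSO, and Synpo2 74.7, 96.4 and 316 CPM.

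The remaining Z-disc genes stayed within 1.5-fold of DMSO in both inhibitor libraries. The nearest to the limit in GANT61 were Synpo2l, for a paralogue of myopodin (0.54, with 51747 counts against 36490 in DMSO), Xirp2, for a Xin actin-binding repeat protein of the intercalated disc (0.52), and Palld, for palladin (-0.48). Des was at -0.41 in GANT61 and -0.28 in cyclopamine, and Pdlim5, for a LIM protein that anchors kinases to alpha-actinin, at -0.31 and -0.16. Ankrd1 was at 0.25 and 0.21 and Nebl, for nebulette, which binds actin at the Z-disc, at 0.19 and 0.28. Flnc (filamin C), Xirp1, Ldb3 (a PDZ-LIM protein), Mypn (myopalladin) and Myoz2 (a calcineurin-binding protein) all lay between -0.14 and 0.09 in both comparisons.

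Genes for the ends of thin filaments showed no member past the size rule. Lmod2, for a leiomodin that lets thin filaments grow, had 15923 counts in GANT61, 15941 in cyclopamine and 16478 in DMSO (-0.01 and -0.11). Lmod3, its paralogue, had 5099, 5269 and 4405 counts (0.25 and 0.20). Tmod1, for tropomodulin, which caps the pointed end, had 18140, 24412 and 24313 counts (-0.38 and -0.06). The Tmod1 exons overlap Tstd2 on the opposite strand over 32.6% of their length, and Tstd2 had 936, 916 and 839 counts.

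Turnover genes parted within the MuRF family of ubiquitin ligases. Trim54 (chromosome 5, 31116712 to 31137630), for the member that associates with microtubules, had 2518 counts in GANT61, 1419 in cyclopamine and 1133 in DMSO. It was higher by size in GANT61 (1.19, interval 1.09 to 1.29, 2.28-fold) and at 0.26 (0.15 to 0.38) in cyclopamine. An antisense gene over 26.6% of its exons, Gm15469, had 0 counts in every library. Trim55 had 13893 counts in GANT61, 21937 in cyclopamine and 20824 in DMSO, at -0.54 and 0.01, and Trim63, the ligase best known from muscle atrophy, had 12681, 14169 and 16350, at -0.33 and -0.27. Neither passed the rule. The chaperone genes Cryab (0.00 and -0.10) and Bag3 (-0.22 and -0.11), whose protein clears damaged filamin, stayed close to DMSO. Hspb2, antisense to 17.0% of the Cryab exons, was at -0.64 and -0.54.

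Gene pairs of one family within the list were set against each other inside each library. All families by name were taken, with Tmod1 set against Lmod2. The Synpo2 to Synpo2l count ratio was 0.0517 in GANT61 (0.0497 to 0.0537) and 0.0832 in cyclopamine (0.0804 to 0.0860), against 0.319 in DMSO (0.312 to 0.325). This shift, like that of Myom2 to Myom1, was seen in both inhibitor libraries. In 5 other pairs the GANT61 library lay further from both other libraries than those lay from each other. No size limit was set for this, and pairs of other genes were not counted. Against DMSO, 21.7% of all genes tested passed the size rule in GANT61 and 11.4% in cyclopamine. Fhl2 to Fhl1 was 0.240 in GANT61, 0.589 in cyclopamine and 0.554 in DMSO. Trim54 to Trim55 was 0.181, 0.0647 and 0.0544, and Xirp2 to Xirp1 was 0.758, 0.535 and 0.558. Tmod1 to Lmod2 was 1.14 in GANT61, 1.53 in cyclopamine and 1.48 in DMSO. Myom3 to Myom1, the last of these pairs and resting on few Myom3 counts, was 0.00117, 0.000144 and 0.000332. Pdlim3 to Pdlim5 was 0.0359 and 0.0291 in GANT61 and cyclopamine, against 0.0449 in DMSO, and Lmod3 to Lmod2 was 0.320 and 0.331, against 0.267. Trim63 to Trim55 was 0.913 in GANT61, 0.646 in cyclopamine and 0.785 in DMSO. Unequal counts of a pair do not show which gene differed.

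**Figure D4:**
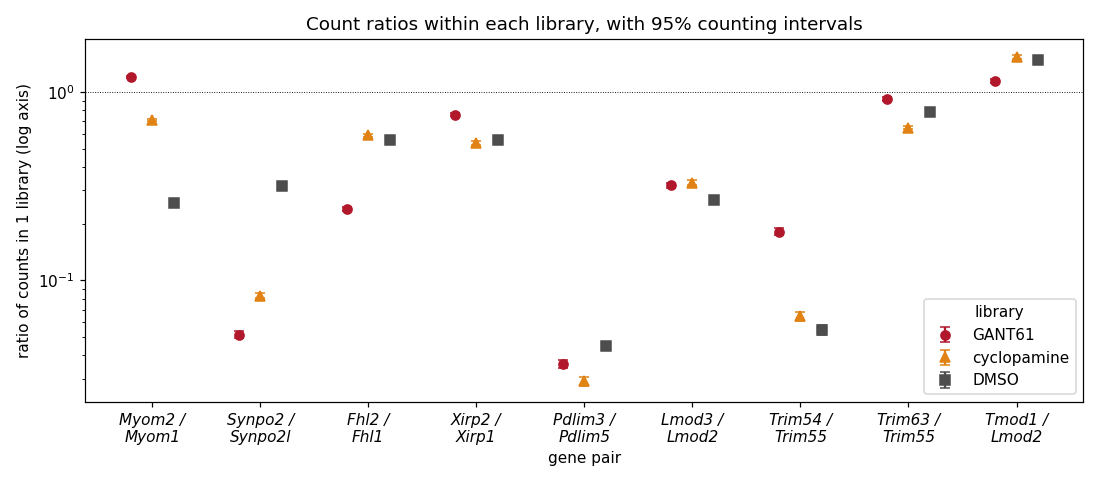
Ratio of counts of 2 genes within the same library (log axis), with 95% counting intervals mostly smaller than the symbols, for GANT61 (circles), cyclopamine (triangles) and DMSO (squares). Myom2 to Myom1 reached 1.199, 0.711 and 0.256, and Synpo2 to Synpo2l 0.0517, 0.0832 and 0.319.

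Contractile genes outside the list mostly stood lower in GANT61 than in DMSO under the scaling used. Over 9 myosin, actin, troponin and tropomyosin genes the median log2 fold change was -0.27 in GANT61 against DMSO. Of these 9, 8 were below 0 and Myh7 was above it, at 0.31. By size 0 were higher and 1 lower in GANT61 (Myl3, a ventricular light chain gene, at -0.67), beside 8.40% and 13.3% of all genes tested. In cyclopamine the median was 0.04, with 0 higher and 0 lower by size, beside 4.10% and 7.27%. When libraries were scaled to those 9 genes, which moved the median of all genes by 0.27 in GANT61 against DMSO, the split in GANT61 became 6 higher and 3 lower, in place of 4 and 6. Synpo2l and Xirp2 then passed as higher, and Actn2, Obsl1 and Pdlim3 no longer passed. Fhl1, Lmod2, Myoz2, Bag3 and Ttn changed sign under that scaling. The split in cyclopamine stayed at 1 and 4. Shares of all genes under that scaling were not counted, so the shares given earlier do not apply to these splits.

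Other scaffold and costamere genes outside the list were read in the same way. Of all genes tested, 13.3% were lower and 8.40% higher by size in GANT61, and 7.27% and 4.10% in cyclopamine. Among 17 tested scaffold genes the GANT61 library had 3 lower and 0 higher by the size rule (median -0.27), and the cyclopamine library 2 and 0 (median -0.16). Pdlim7, for a Z-disc LIM protein, was lower in both, with 8467 and 8969 counts in GANT61 and cyclopamine, against 15295 in DMSO (-0.81 and -0.83). Lmod1, the smooth muscle leiomodin gene, was also lower in both on 23 and 54 counts, against 86 (-1.78 and -0.71). Mybpc2, the fast skeletal myosin-binding protein C gene, had 327 and 647 counts, against 654 (-0.96 and -0.08). Of 16 costamere genes, which tie Z-discs to the membrane, 3 were lower and 0 higher in GANT61 (median -0.14), and 0 passed in cyclopamine (median -0.04). Itgb1bp2, for melusin, a chaperone-like integrin partner, was at -1.32 in GANT61 and -0.53 in cyclopamine, and Lims1, for an adaptor of integrin-linked kinase, at -0.68 and -0.32.

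Turnover and chaperone genes outside the list lay mostly below DMSO. Of 19 tested, 1 was higher and 7 lower by size in GANT61 (median -0.38, with 15 below 0), and 1 higher and 2 lower in cyclopamine (median -0.23, with 14 below 0). Of all 15576 genes tested, 8.40% were higher and 13.3% lower in GANT61, with 7906 below 0. The shares in cyclopamine were 4.10% and 7.27%, with 7899 below 0. Scaling to the 9 contractile genes moved the median of all genes by 0.27 in GANT61 against DMSO. Klhl41 and Klhl40, for kelch proteins that stabilise thin filament proteins in skeletal muscle, were lower by size in both inhibitors. Klhl41 had 715 and 1288 counts in GANT61 and cyclopamine, against 1944 in DMSO (-1.40 and -0.65), and Klhl40 had 196 and 310, against 501 (-1.31 and -0.75). The related Klhl31 was at -1.36 and -0.35. Fbxl22, for an F-box protein of the sarcomere, had 1233 and 2234 counts, against 2908 (-1.20 and -0.44). Fbxo40, for a muscle F-box protein of a ubiquitin ligase and named after its values were seen, was the higher gene in GANT61, with 19438 counts against 10145 in DMSO (0.98), and at 0.12 in cyclopamine. Fbxo32, for the atrophy-linked ligase atrogin, was higher in cyclopamine, with 1809 counts against 1111 (0.64), and at 0.56 in GANT61.

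The inhibitor libraries were also compared with each other, although their doses were not matched. Of the 34 list genes, 3 were higher (8.82%, beside 6.16% of all genes tested) and 2 lower (5.88%, beside 8.83%), with medians of -0.02 over the list and 0.00 over all genes. In either direction 15.0% of all genes passed, and among genes of at least 100 CPM 2 of 29 list genes did (6.90%, beside 4.92%). Xirp2 was higher by size (0.71, interval 0.69 to 0.74), with 23250 counts in GANT61 and 15200 in cyclopamine, beside 16712 in DMSO. Trim54 was higher at 0.93 (0.83 to 1.02), and Myom3 at 2.46 (1.69 to 3.92) on 55 counts and 9. Tcap was lower at -1.32 (-1.43 to -1.21) and Fhl2 at -0.83 (-0.86 to -0.80). Myom2 (0.44), Synpo2 (-0.37) and Pdlim3 (0.15), the genes past the rule against DMSO in the same direction in both inhibitors, differed by less than 1.5-fold between the inhibitor libraries. Scaling to the 9 contractile genes gave 7 higher and 1 lower, Tcap being the lower gene. The share of all genes under that scaling was not counted.

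**Figure D5:**
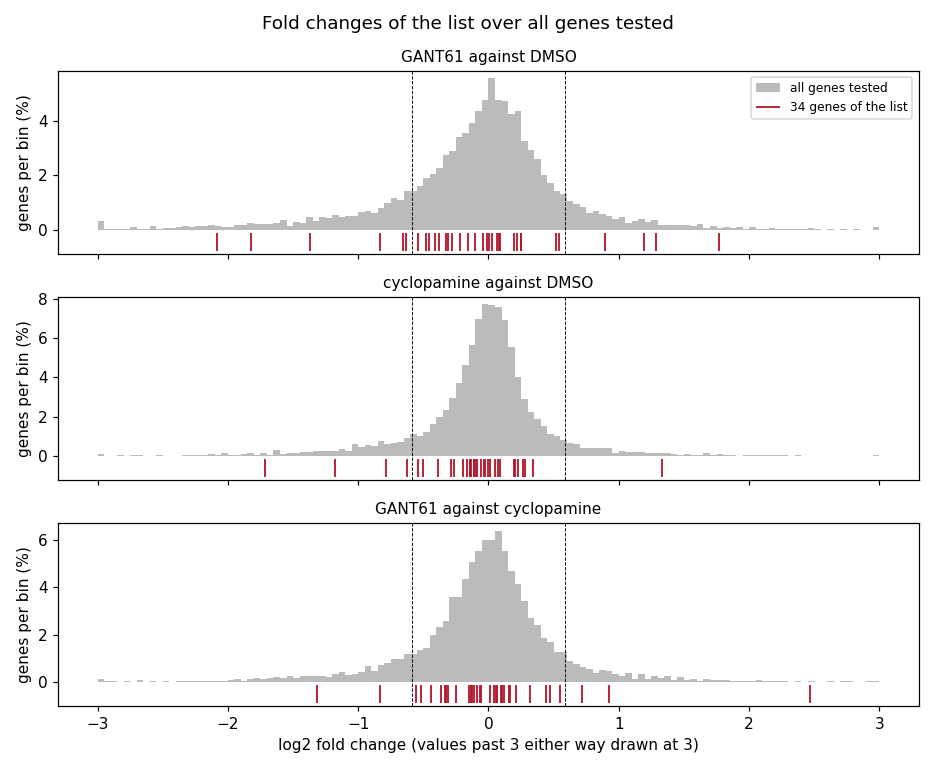
Percent of all 15576 genes tested per bin of log2 fold change (grey) with a red tick below for each of the 34 list genes, for GANT61 against DMSO, cyclopamine against DMSO and GANT61 against cyclopamine, with dashed lines at 1.5-fold. Most ticks lie within the dashed lines in each panel, with 10, 5 and 5 outside.

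Taking both inhibitor libraries as 1 arm against DMSO gave the only test these columns allow, with the spread between the compounds as its error and 1 residual degree of freedom. In edgeR's quasi-likelihood test with Benjamini-Hochberg adjustment over 15576 genes, 0 of the 34 list genes were called (0.00% of all genes). At an unadjusted p under 0.05 there were 6 list genes and 977 genes in all (6.27%), and limma-voom also called 0. The lowest adjusted p of the list was 0.080 for Synpo2 (log2 fold change -1.88, lower in 2 of 2 inhibitor libraries) by edgeR, followed by 0.121 for Myom2 (1.57, higher in 2 of 2). DESeq2's Wald test called Myom2 as higher (adjusted p 1.09e-06, among 0.519% of the genes with an adjusted p) and Synpo2 as lower (adjusted p 9.46e-10, among 0.686%). Over the other alternatives for this test the adjusted p ranged from 6.02e-18 (no expression filter) to 0.235 (at least 5 CPM in 2 libraries) for Synpo2 and from 7.12e-11 to 0.288 under the same 2 settings for Myom2. Pdlim3 (-0.71, adjusted p 0.390), Obsl1 (-0.59, 0.730), Fhl2 (-0.90, 0.786) and Csrp3 (0.64, 0.791) were the other 4 genes at an unadjusted p under 0.05 in edgeR.

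The authors' deposited table of genes higher in the inhibitors lists Csrp3, Myom2, Myom3, Synpo2l and Trim54 of the 35. Their table of lower genes lists 11, namely Actn2, Des, Fhl1, Fhl2, Myom1, Obsl1, Palld, Pdlim3, Synpo2, Tcap and Trim63. In all, the authors' tables list 6612 higher and 6461 lower genes, beside 22450 genes with a count in any library. A place in them therefore does not set a list gene apart. Checked on the counts, a gene in those tables had a mean of the inhibitor counts at least 1.2-fold from DMSO, before any scaling, or 0 counts in DMSO. Of the 12 genes past the size rule in any comparison, all but Xirp2 are in the authors' tables. The authors' higher table includes Myom3, which had fewer counts in cyclopamine than in DMSO.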

How the data were processed

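Whole-number read counts per gene were used as the authors deposited them, without normalization, in 1 column per group. The submitters' processing notes name GRCm38, featureCounts, HISAT2 2.1.0, FastQC and Trimmomatic 0.33. How strand was treated in counting, and on which annotation, is not given in the sources used here, so antisense genes may share reads. The kit was TruSeq stranded mRNA, per the labels' protocols. The authors also deposited tables of higher and lower genes, which hold the same counts, and means over the inhibitor columns (estimated counts made by the authors, not used in the fits).

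All 3 libraries were fitted together in edgeR 4.0.16 (R 4.3.3): filterByExpr kept 15576 genes, scaling was by TMM, and log2 CPM took a prior count of 2. Pairwise comparisons had no test and used the size rule with exact conditional binomial intervals. The 2-arm test was edgeR's quasi-likelihood test with robust estimation. Its p-values measure only the spread between the 2 inhibitor libraries. DESeq2 1.42.0, limma 3.58.1 and other scalings, filters and thresholds were alternatives. Gene positions and exon lengths came from GENCODE M21, promoters from RefSeq (GRCm38.p6). The size rule and the edgeR test were also run on simulated data in which both inhibitor libraries were altered by the same folds. Those runs held no difference between the compounds, so they do not cover that case.

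The genes and gene lists were chosen with earlier results of these data known. Genes past the size rule and the 5 most abundant per kb were named with their counts, and from each other list at most 4 genes past the rule by fold, per comparison. A gene that this rule selects is not reported here.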

Additional observations from a re-analysis of the deposited data

Results flagged for a closer look

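Myom3 lay on opposite sides of DMSO in the inhibitor libraries, at 1.29 in GANT61 and -1.18 in cyclopamine on the log2 scale, from 55 and 9 counts, against 22 in DMSO. The difference was not tested, since each group has 1 library.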

How the results depend on the processing

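No paired analysis was possible because the table has 1 count column per group and the columns carry no replicate number. A 1.2-fold limit gave 20 list genes in GANT61 against DMSO, 12 in cyclopamine against DMSO and 16 in GANT61 against cyclopamine, and a 2-fold limit gave 6, 3 and 2. Scaling to 9 contractile genes, which moved the median of all genes by 0.27 in both comparisons of GANT61, gave 8 in GANT61 against cyclopamine. Shares of all genes were not counted at these limits or under this scaling. These counts therefore do not set the list apart from other genes. In the 2-arm test, which called 0, the count was 2 by DESeq2 (Myom2 and Synpo2), 1 with library size only (Synpo2), 6 without the expression filter, 1 at an adjusted p of 0.1 (Synpo2) and 2 with contractile scaling, chosen after seeing the data. Calls over all genes rose too. They were 144 of 11952 by DESeq2, 18 of 15576 with library size only, 482 of 22450 without the filter and 155 of 15576 with contractile scaling. Calls over all genes at an adjusted p of 0.1 were not counted. The cause of these shifts was not tested. No other setting moved a count of list genes by over 1.5 times, and no gene changed sign in a comparison where it had passed the size rule. Leaving out an inhibitor library leaves no residual degrees of freedom, so the pairwise values stand in its place. At this depth, Myot and Myom3 allow no firm statement, and a 99% interval ended the call for Myom3 in cyclopamine.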

Other observations

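Genes of the factors that bind the CArG box and the MEF2 site, with their cofactors, were also read. Of 10 tested, 2 were lower and 0 higher by size in GANT61 against DMSO (median log2 fold change -0.19), and 0 passed in cyclopamine against DMSO (median -0.10). Of all genes tested, 13.3% were lower and 8.40% higher in GANT61, and 11.4% passed in either direction in cyclopamine. Hdac9, for a histone deacetylase that represses MEF2 targets, had 438 counts in GANT61 and 1054 in cyclopamine, against 1337 in DMSO (-1.57 and -0.40). Hdac5, of the same class, had 1949 and 2764 counts, against 3139 (-0.65 and -0.24). Hdac4, also of that class, lay on the other side, with 1115 and 899 counts, against 765 (0.58 and 0.17), and did not pass the size rule. Srf was at 0.15 and -0.13, Mef2a at 0.23 and 0.36, and Mrtfa at 0.29 and 0.14. Below DMSO in GANT61 were Myocd (-0.56 and -0.28), Mef2c (-0.27 and -0.07), Mrtfb (-0.23 and 0.11) and Mef2d (-0.15 and -0.15). None of these genes passed the size rule. No relation between these genes and the scaffold genes was tested.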
